A study of Mus musculus with 19 samples.

Results

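The endoplasmic reticulum (ER) is the compartment in which secreted and membrane proteins are folded, and the genes described here encode its chaperones, its disulfide-forming enzymes, the sensors that watch over its load and the machinery that removes misfolded proteins. The list holds 35 names, taken by gene symbol from the 54146 gene identifiers of the RNA files. Of these, 33 were matched. Syvn1, the ubiquitin ligase partner of Sel1l, is not analysed here, and the name Crelf matched no gene symbol. Testing required an average of 1 TPM or more across all 5 libraries, which 31 members met, and Trib3 and Chac1 lay below it.

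When unfolded proteins build up, the chaperone BiP (encoded by Hspa5) is drawn away from 3 membrane sensors: Atf6, Ire1 (encoded by Ern1) and Perk (encoded by Eif2ak3). Atf6 is cut to release a transcription factor, Ire1 splices the Xbp1 messenger so that it encodes an active factor, and Perk slows translation while favouring that of Atf4. Atf6 and spliced Xbp1 act largely on chaperone and degradation genes, whereas Atf4 acts on stress and amino acid genes such as Ddit3, Trib3 and Chac1. In kidney, tubule cells make large amounts of membrane transporters and, in the thick ascending limb, the secreted protein uromodulin, all of which are folded in the ER.

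RNA sequencing was done on whole kidneys of B6C3F1/J mice at 3 weeks of age (postnatal day 21). The KspCre DKO group held 2 libraries with the genotype KspCre Dnmt3ab f/f, in which the promoter of Ksp-cadherin, active in tubule epithelium and not in stroma, drives Cre against floxed alleles of the DNA methyltransferase genes Dnmt3a and Dnmt3b. The control group held 3 libraries with the genotype Dnmt3ab f/f, which carry the same floxed alleles without Cre. The other 14 of 19 samples are bisulfite libraries and are not analysed here. No label states that each library is a different mouse, and p-values describe only the spread among the libraries at hand, which may be technical. In whole kidney, fewer cells of a type and less RNA per cell cannot be told apart.

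The values are TPM, transcript abundances corrected for length and scaled to a fixed sum per library, so levels can be compared between genes. The number of reads behind them cannot be read from such values, and depth is unknown. KspCre DKO replicate 2 stood apart, with 14710 genes above 0 TPM and 31.0% of its TPM in mitochondrially encoded genes, against 18488 to 20510 genes and 18.2% to 23.2% in the other 4 libraries. The targeted genes did not check the labels: Dnmt3a stood at 9.98 and 14.2 TPM in KspCre DKO libraries against 13.2, 19.0 and 15.5 TPM in controls, and Dnmt3b at 2.29 and 3.25 TPM against 1.82, 2.86 and 1.98 TPM. Cdh16, the gene of Ksp-cadherin itself, was high in every library, at 1121 and 906 TPM in KspCre DKO libraries against 900.3, 895 and 986 TPM in controls. Directions therefore rest on the labels, and every log2 fold change, computed on log2(TPM + 1), is KspCre DKO minus control.

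The best-known regulatory sequence of these genes is the ER stress response element (ERSE), which reads CCAAT, 9 bases of any kind and CCACG, and in which CCAAT binds NF-Y and CCACG binds Atf6 or Xbp1. It was searched on both strands in the 250 bases before each RefSeq start site (GRCm38.p6, of which mm10 is the UCSC name). It was present in 37 of 32851 windows of all genes, or 0.113%, some genes having several windows, and in 9 of the 29 members that have a window. The element is already known from these genes, so its presence among them is not a finding of these data. Windows are counted over all genes, and genes among the members. The 10 matches are shown with 20 flanking bases on each side, read along the strand on which CCAAT comes first, with the element in capitals.

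Hspa5 (chr2:34772005-34772063, plus strand): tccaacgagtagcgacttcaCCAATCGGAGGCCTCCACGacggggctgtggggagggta
Calr (chr8:84847055-84847113, plus strand): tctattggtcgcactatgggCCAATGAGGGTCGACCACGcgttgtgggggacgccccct
Derl3 (chr10:75893222-75893280, minus strand): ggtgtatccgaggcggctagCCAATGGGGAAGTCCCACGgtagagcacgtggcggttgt
Hsp90b1 (chr10:86705618-86705676, minus strand): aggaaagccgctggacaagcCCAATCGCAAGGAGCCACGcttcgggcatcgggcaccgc
Hsp90b1 (chr10:86705513-86705571, plus strand): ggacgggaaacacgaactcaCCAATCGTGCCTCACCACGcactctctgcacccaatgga
Canx (chr11:50325780-50325838, minus strand): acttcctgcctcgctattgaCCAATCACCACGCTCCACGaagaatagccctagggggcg
Pdia6 (chr12:17266471-17266529, plus strand): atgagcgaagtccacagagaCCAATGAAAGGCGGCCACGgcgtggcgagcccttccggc
Ero1lb (chr13:12565662-12565720, minus strand): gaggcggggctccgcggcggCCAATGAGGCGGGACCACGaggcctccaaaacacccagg
Dnajc3 (chr14:118937807-118937865, plus strand): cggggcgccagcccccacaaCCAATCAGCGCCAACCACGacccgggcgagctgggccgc
Creld2 (chr15:88819500-88819558, minus strand): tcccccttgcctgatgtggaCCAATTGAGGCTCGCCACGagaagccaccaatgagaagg

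The first base of the element on the gene's strand lay 65 bases before the start site in Hspa5, 98 in Pdia6, 105 in Dnajc3, 107 and 212 in Hsp90b1, 126 in Creld2, 145 in Canx, 156 in Derl3, 162 in Calr and 201 in Ero1lb. For Ero1lb this start site lies inside the outermost annotated extent of the gene. A shorter relative, ERSE-II (ATTGG, 1 base of any kind and CCACG), was found in 10 of 32851 windows (0.0304%) and among members in Herpud1 alone. The C/EBP-ATF element (TTGCATCA), read by Atf4 dimers, was found in 0.791% of windows and among members in Chac1 and Herpud1. The element UPRE (TGACGTGG), bound by Xbp1 and Atf6, was in 0.563% of windows and in no member window. None of these motifs overlapped another in a member window. Herpud1 is shown for its pair of elements and Chac1 as a second member with the Atf4-type element, in capitals with 20 flanking bases.

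Chac1, C/EBP-ATF (chr2:119351029-119351076, plus strand): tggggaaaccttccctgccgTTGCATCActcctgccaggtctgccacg
Herpud1, C/EBP-ATF (chr8:94386297-94386344, plus strand): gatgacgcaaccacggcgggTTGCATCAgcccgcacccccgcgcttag
Herpud1, ERSE-II (chr8:94386357-94386407, plus strand): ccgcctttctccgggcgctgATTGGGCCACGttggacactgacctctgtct

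A match is a description of letters and not of a bound site. Members with an ERSE did not all lie on one side of the controls.

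Across the whole list, Rnf183 and Pdia2 rose in KspCre DKO kidneys and no member fell (limma, Benjamini-Hochberg adjusted p below 0.05). That is 2 of 31 tested members, where 0.165% of all 13963 tested genes were called in either direction, 0.1% were called higher and 0.0645% lower (14 genes higher and 9 lower, or 24 and 7 after median-of-ratios scaling and 35 and 7 after quantile normalization). Pdia2 reached the mean of 1 TPM only through the KspCre DKO libraries, so its place among the tested genes already depends on its being high there. The members were chosen with earlier results of these data known. The shares over all tested genes therefore give a background and are not a test of the list. At an unadjusted p below 0.05, 10 members were lower and 2 higher, beside 10.3% of all tested genes in both directions. Apart from calls, both KspCre DKO values lay under every control value for 13 of 31 members (41.9%), where 15.6% of all tested genes did so. Both lay above every control value for 3 members, Pdia2 among them, where 10.5% of all tested genes did so. The median log2 fold change was −0.43 over the tested members and −0.14 over all tested genes, and 24 of 31 members, beside 61.7% of all tested genes, had a value below 0.

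**Figure D1:**
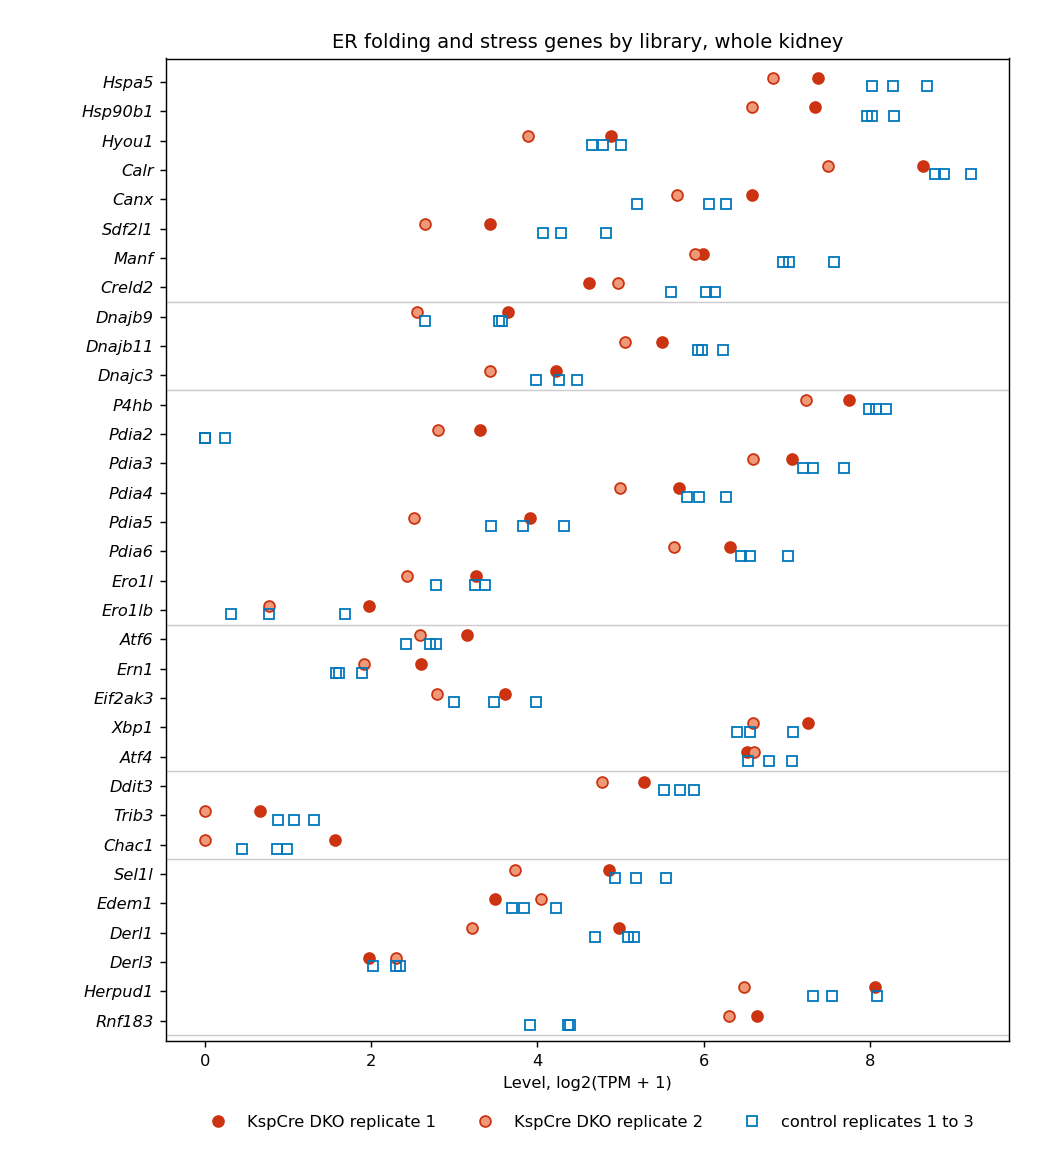
Level of each matched member in each library, as log2(TPM + 1) on the horizontal axis, grouped from top to bottom as chaperones, co-chaperones, disulfide enzymes, sensors and factors, outputs of Atf4, and degradation genes. Circles are the 2 KspCre DKO libraries and open squares the 3 controls; the circles of Hspa5, Hsp90b1, Manf, Creld2 and Sdf2l1 lie left of all squares, and those of Pdia2 and Rnf183 lie right of them.

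The 13 members whose groups lay apart on the low side were 6 chaperones, 1 co-chaperone, 4 disulfide isomerases, Ddit3 and Sel1l. None of the 5 sensors and factors was among them. With quantile normalization the median over all tested genes was −0.02, against −0.14 as deposited, and that over members −0.35, with 14 members lower and 4 higher without overlap, beside 16.1% and 14.9% of all tested genes. With median-of-ratios scaling the medians were −0.04 and −0.33, and 13 members were lower and 4 higher without overlap, beside 16.9% and 14.7% of all tested genes.

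Of the 8 chaperones and chaperone-associated genes, 6 lay below all controls, where 15.6% of all tested genes did so, and none of them was called. Hspa5, which encodes BiP, the main Hsp70 of the ER, stood at 164 and 113 TPM in KspCre DKO kidneys, against 307, 259 and 409 TPM in controls. Its mean was 138 ± 36.4 TPM (SD, n = 2) against 325 ± 76.5 TPM (SD, n = 3), 0.426 of the control mean. The groups did not overlap, and the log2 fold change of −1.23 ± 0.30 (SE) had an unadjusted limma p of 0.00291 and an adjusted p of 0.196. Hsp90b1, which encodes Grp94, the ER form of Hsp90, stood at 160.1 and 94.95 TPM in KspCre DKO kidneys, against 258, 247 and 311 TPM in controls. Here too each KspCre DKO value lay under each control value, differing by −1.13 ± 0.29 in log2 (SE, limma adjusted p = 0.228). Hspa5 overlaps the annotated gene Rabepk, and the strand setting of the counting is not given, so reads of the overlap cannot be assigned.

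The small stress-inducible proteins of the same compartment showed the same order. Manf, a secreted and luminal protein that binds BiP, stood at 62.8 and 58.5 TPM in KspCre DKO kidneys, against 123, 129 and 187 TPM in controls, differing by −1.23 ± 0.28 in log2 (SE, limma adjusted p = 0.178). Creld2, a luminal protein induced by ER stress, stood at 23.5 and 30.3 TPM, against 47.6, 64.0 and 69.0 TPM in controls (log2 fold change −1.12, limma adjusted p = 0.228). Sdf2l1, which works with Dnajb11 in BiP complexes, stood at 9.76 and 5.25 TPM, against 15.7, 18.4 and 27.4 TPM in controls. Its log2 difference of −1.35 ± 0.37 (SE, limma adjusted p = 0.253) was the lowest of the 31 members and lay at percentile 2.37 of all tested genes. The KspCre DKO replicates did not keep one order, since Creld2 was lower in replicate 1 and Manf and Sdf2l1 in replicate 2.

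The lectin chaperones, which hold glycoproteins while they fold, gave Calr below the controls and Canx among them. Calr, soluble calreticulin, had the highest level of the list in both groups, at 395 and 179 TPM in KspCre DKO kidneys against 473, 438 and 589 TPM in controls. Its groups lay apart, differing by −0.90 ± 0.35 in log2 (SE, limma adjusted p = 0.425). Canx, its membrane-bound relative calnexin, stood at 94.7 and 50.3 TPM in KspCre DKO kidneys, against 76.1, 35.8 and 65.9 TPM in controls. These groups overlapped, and the log2 fold change of 0.28 had a 95% interval of −0.64 to 1.21. Hyou1, the Grp170 protein that exchanges nucleotide on BiP, stood at 28.5 and 13.8 TPM against 24.3, 26.7 and 31.1 TPM in controls, with KspCre DKO replicate 1 inside the control range.

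Of the J-domain co-chaperones, which drive the BiP cycle, Dnajb11 lay apart and the others did not. Dnajb11 (ERdj3) stood at 44.2 and 32.1 TPM in KspCre DKO kidneys, against 61.9, 60.1 and 73.9 TPM in controls, a difference of −0.77 ± 0.28 in log2 (SE, limma adjusted p = 0.388). Dnajc3, known as p58IPK, stood at 17.7 and 9.80 TPM against 21.3, 14.8 and 18.1 TPM in controls. Dnajb9 (ERdj4), a well-known Xbp1 target, stood at 11.5 and 4.86 TPM against 10.6, 5.27 and 10.9 TPM in controls. For Dnajb9 the KspCre DKO libraries spanned a wider range than the controls, with a log2 fold change of −0.15 and a 95% interval of −1.17 to 0.86.

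The protein disulfide isomerases, which form and reshuffle disulfide bonds, held Pdia2, which was called higher, and 4 genes that lay below all controls without passing the test. Pdia2 was tested only because it is high in the KspCre DKO libraries. Over all tested genes, 15.6% lay below all controls and 10.5% above. P4hb, the archetypal isomerase, stood at 213 and 148 TPM in KspCre DKO kidneys, against 252, 290.5 and 267 TPM in controls, and its log2 fold change was −0.60 ± 0.26 (SE, limma adjusted p = 0.48). Pdia3 (ERp57), the partner of calreticulin and calnexin, stood at 133 and 95.5 TPM against 158, 146 and 204 TPM in controls. Pdia4 (ERp72) stood at 51.0 and 30.9 TPM against 54.4, 60.3 and 75.7 TPM in controls. In these 3 genes the KspCre DKO values lay below the controls, in Pdia4 by a narrow margin for replicate 1. Pdia6 (P5) stood at 78.6 and 48.7 TPM against 93.3, 86.0 and 128 TPM in controls, also without overlap. Log2 fold changes of Pdia3, Pdia4 and Pdia6 were −0.57, −0.65 and −0.70 (limma adjusted p = 0.53, 0.528 and 0.503). Pdia5 overlapped the controls, at 14.04 and 4.73 TPM against 13.2, 9.84 and 18.9 TPM. Pdia3 and Pdia6 each overlap an annotated neighbour, Catsper2 and Atp6v1c2.

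Pdia2, on the minus strand of chromosome 17 from 26195999 to 26199134 in RefSeq (GRCm38.p6), was the exception. It encodes an isomerase best known from the pancreas, and it stood at 8.92 and 6 TPM in KspCre DKO kidneys, while control replicates 1 and 3 were listed at 0 and control replicate 2 at 0.18 TPM. The log2 fold change was 2.98 ± 0.41 (SE, limma adjusted p = 0.048), and its size depends on the pseudocount because the controls are at or near 0. Pdia2 passed the filter on mean TPM only through the KspCre DKO libraries. Neither its call nor its place above the controls is therefore independent of that filter. Its call was lost without control replicate 1, 2 or 3 (adjusted p = 0.0815, 0.202 and 0.211) or without KspCre DKO replicate 2 (adjusted p = 0.139), and it held without KspCre DKO replicate 1 (adjusted p = 0.0429). With a pseudocount of 0.1 TPM the value was 5.72 with adjusted p = 0.22, and the call was also lost with no filter on low values, with array weights or with the replicate block. Of the 10 matched genes listed for pancreatic acinar cells, all but Cela1 were at or near 0. Cpa1, Prss2, Cela2a, Cela3b, Cel, Try4 and Amy2b were listed at 0 in every library. Cela1 stood at 113 and 68.7 TPM in KspCre DKO kidneys against 156, 43.8 and 80.3 TPM in controls. The part of such cells in the Pdia2 result was not tested. The nearest annotated protein-coding genes in the files, Axin1 and Rgs11 on chromosome 17, had log2 fold changes of 0.42 and 0.66 (limma adjusted p = 0.676 and 0.589). The 250 bases before a RefSeq start site of Pdia2, which lies inside the outermost annotated extent of the gene, are shown as those of one of the 2 called genes, and they hold none of the 4 motifs searched, so no letter is in capitals.

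Pdia2 (chr17:26199088-26199337, minus strand): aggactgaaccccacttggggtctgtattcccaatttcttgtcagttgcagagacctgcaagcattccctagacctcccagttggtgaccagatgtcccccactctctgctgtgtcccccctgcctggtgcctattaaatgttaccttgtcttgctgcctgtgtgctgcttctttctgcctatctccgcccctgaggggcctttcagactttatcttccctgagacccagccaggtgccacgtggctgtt

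The oxidases that recharge the isomerases had low levels and overlapping groups. Ero1l, now Ero1a, stood at 8.59 and 4.41 TPM in KspCre DKO kidneys, against 8.50, 5.86 and 9.37 TPM in controls. Ero1lb, now Ero1b, stood at 2.92 and 0.71 TPM against 2.22, 0.25 and 0.71 TPM in controls. The 95% interval of the Ero1lb log2 fold change, −0.88 to 1.76, leaves a wide range of differences possible in either direction.

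**Figure D2:**
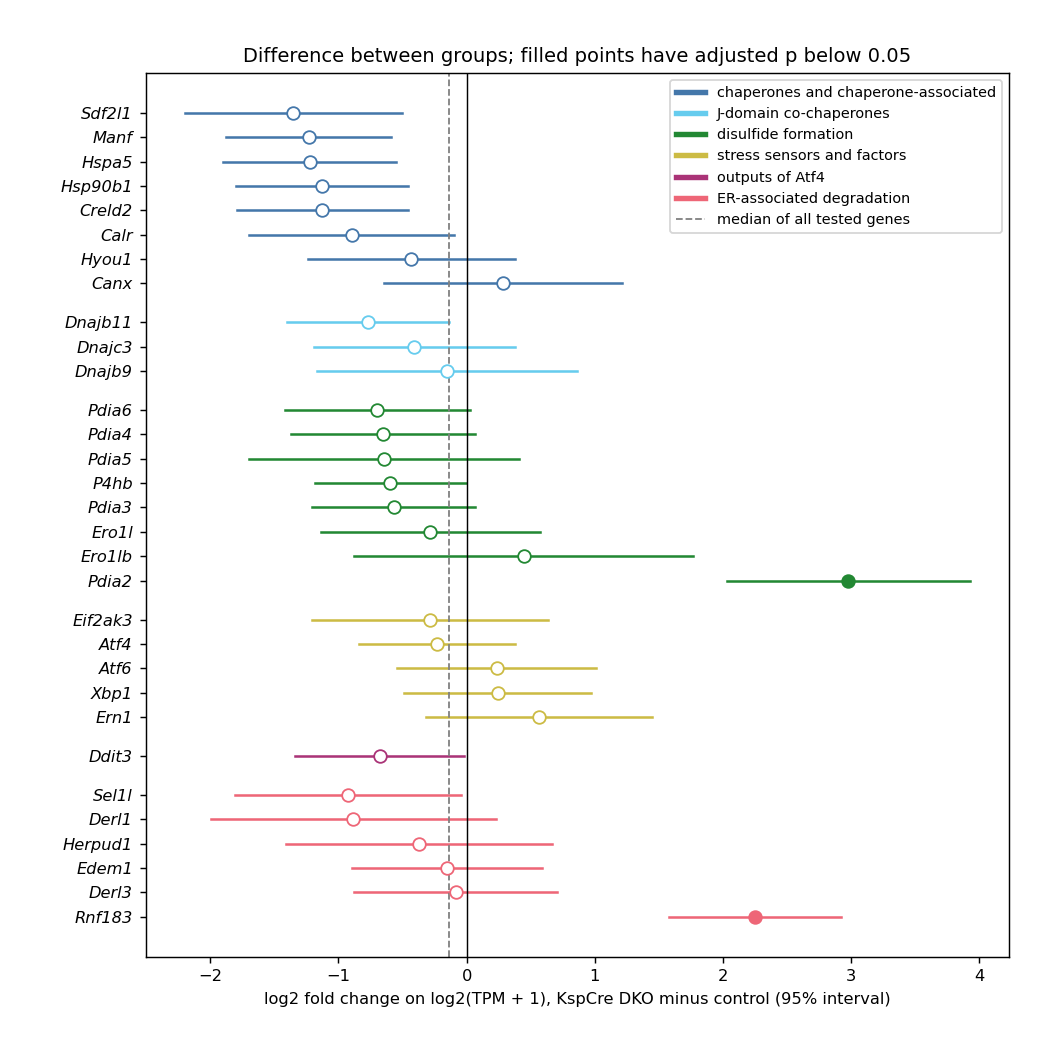
Log2 fold change of each tested member as KspCre DKO minus control in log2(TPM + 1), with limma's 95% interval as a bar. Filled points, Pdia2 and Rnf183, have adjusted p below 0.05, and the dashed line at −0.14 is the median of all tested genes; chaperones and isomerases lie mostly left of it, and Atf6, Xbp1 and Ern1 right of it.

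Of the 5 sensors and transcription factors, none was called, 4 overlapped the controls and 1 lay above them, where 10.5% of all tested genes did so. Atf6 stood at 7.91 and 5 TPM in KspCre DKO kidneys, against 5.89, 4.34 and 5.51 TPM in controls. Ern1, the Ire1 gene, stood at 5.06 and 2.76 TPM against 1.99, 2.70 and 2.05 TPM in controls, so both KspCre DKO values lay above the controls, replicate 2 by 0.06 TPM. Eif2ak3, the Perk gene, stood at 11.2 and 5.91 TPM against 10.2, 14.8 and 6.96 TPM in controls. None passed the test, and log2 fold changes were 0.24, 0.56 and −0.29 (limma adjusted p = 0.843, 0.652 and 0.839). Xbp1 stood at 151 and 95.1 TPM in KspCre DKO kidneys, against 92.8, 83.6 and 133 TPM in controls. Its log2 fold change of 0.24 had a 95% interval of −0.49 to 0.97. Gene-level TPM do not separate spliced from unspliced Xbp1. Atf4 stood at 90.7 and 96.0 TPM against 91.4, 109 and 132 TPM in controls, with a log2 fold change of −0.23 and a 95% interval of −0.84 to 0.38. Atf4 and the sensors are regulated largely after transcription, so their messenger levels do not measure their activity.

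A ratio within a library does not depend on that library's scaling factor, and the ratio to Xbp1 lay apart between the groups for 7 of the 8 chaperones, Canx being the exception. These ratios were chosen after the values were seen and are given without a test. How often the ratio of any tested gene to Xbp1 lay apart was not computed, so the count has no background. Hyou1, whose own values overlapped the controls, is among the 7. Hspa5 had 1.09 and 1.18 times the TPM of Xbp1 in KspCre DKO kidneys, against 3.31, 3.1 and 3.07 times in controls. For Hsp90b1 the ratios were 1.06 and 0.999 in KspCre DKO kidneys, against 2.78, 2.96 and 2.34 in controls. For Manf they were 0.416 and 0.615, against 1.32, 1.54 and 1.41 in controls. In each case both KspCre DKO libraries lay below all 3 controls. For Canx the ratios overlapped, at 0.628 and 0.529 in KspCre DKO kidneys against 0.821, 0.428 and 0.496 in controls. Groups also lay apart for Hyou1, Sdf2l1, Creld2, Calr and P4hb over Xbp1, and for Hspa5 over Canx, at 1.73 and 2.24 in KspCre DKO kidneys against 4.04, 7.23 and 6.2 in controls. Such ratios show unequal differences and not which of the genes differed.

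**Figure D3:**
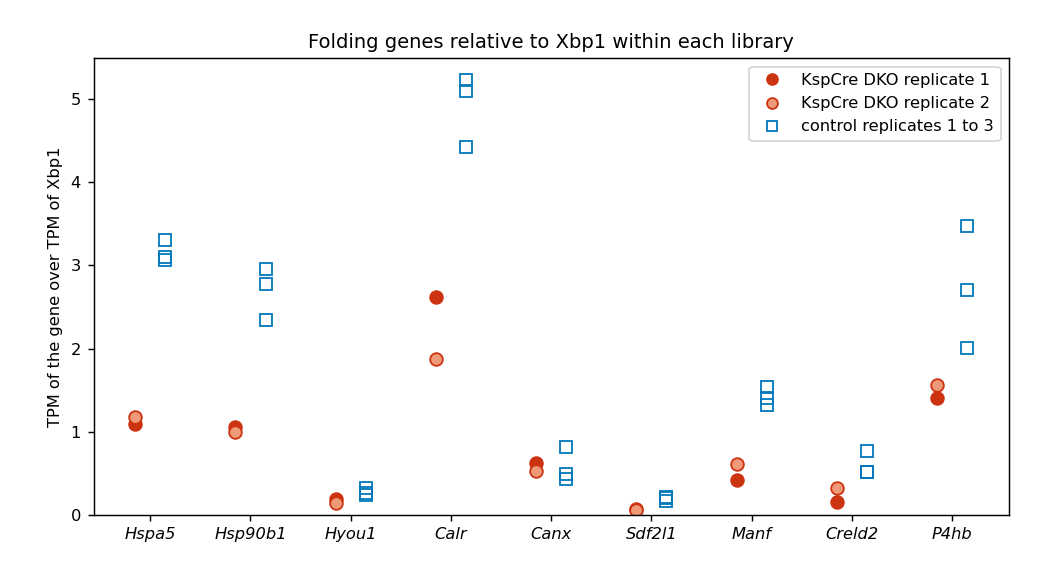
TPM of the 8 chaperones and P4hb divided by the TPM of Xbp1 in the same library, on a linear axis from 0. Circles are the 2 KspCre DKO libraries and squares the 3 controls; for Hspa5 the KspCre DKO ratios are 1.09 and 1.18 and the control ratios 3.07 to 3.31, while those of Canx overlap.

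Of the 3 outputs of the Perk and Atf4 branch, Ddit3 alone could be tested, and it was not called. Ddit3, which encodes Chop, the factor tied to stress-induced cell death, stood at 38.0 and 26.4 TPM in KspCre DKO kidneys, against 45.0, 58.1 and 51.6 TPM in controls. Its groups lay apart, differing by −0.68 ± 0.29 in log2 (SE, limma adjusted p = 0.471). Ddit3 overlaps Mbd6 and Mars1, and a second identifier with the same symbol was at 0 in every library. Trib3, a pseudokinase induced by Chop, was at 0.58 TPM in replicate 1 and listed at 0 in replicate 2 of the KspCre DKO group, against 0.84, 1.11 and 1.48 TPM in controls. Chac1, which degrades glutathione, was at 1.95 TPM in replicate 1 and listed at 0 in replicate 2, against 0.36, 0.99 and 0.82 TPM in controls. Both of these genes were too low for the test, Trib3 lying below all controls and Chac1 on both sides of them.

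Genes of ER-associated degradation, which sends misfolded proteins to the proteasome, were mixed. Sel1l, the adaptor of the Hrd1 ligase, stood at 27.9 and 12.3 TPM in KspCre DKO kidneys, against 29.6, 35.3 and 45.7 TPM in controls, differing by −0.93 ± 0.39 in log2 (SE, limma adjusted p = 0.459). Derl1, a channel-associated protein, stood at 30.4 and 8.29 TPM against 34.7, 24.8 and 33.1 TPM in controls. Herpud1, a membrane protein that assembles the Hrd1 complex, stood at 265 and 88.4 TPM against 269, 185 and 158 TPM in controls. In Derl1 and Herpud1, KspCre DKO replicate 1 lay within the control range and replicate 2 below it. Edem1, a lectin that delivers glycoproteins for degradation, stood at 10.3 and 15.4 TPM against 17.6, 11.9 and 13.3 TPM in controls. Derl3 stood at 2.94 and 3.91 TPM against 4.09, 3.94 and 3.05 TPM in controls, and its log2 fold change was −0.09 with a 95% interval of −0.88 to 0.70.

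Rnf183 rose beyond the spread. It encodes a RING-type ubiquitin ligase of intracellular membranes that is known in kidney from the collecting duct, and it stood at 98.7 and 78.1 TPM in KspCre DKO kidneys, against 19.9, 13.99 and 19.6 TPM in controls. The means were 88.4 ± 14.6 TPM (SD, n = 2) and 17.8 ± 3.34 TPM (SD, n = 3), a 4.96-fold difference. The log2 fold change was 2.25 ± 0.29 (SE, limma adjusted p = 0.0451), higher in 2 of 2 KspCre DKO libraries. By mean TPM Rnf183 had rank 9 of the 33 matched members in KspCre DKO kidneys and rank 21 in controls. The gene lies on the minus strand of chromosome 4, from 62427540 to 62435250 in RefSeq (GRCm38.p6). Its call was lost without control replicate 1, 2 or 3 (adjusted p = 0.0566, 0.202 and 0.197) or without KspCre DKO replicate 2 (adjusted p = 0.152), and held without KspCre DKO replicate 1 (adjusted p = 0.0434). It was also lost with a pseudocount of 0.1 TPM, no filter, no intensity trend or array weights, while the log2 fold change stayed between 2.03 and 2.42 over the 15 alternatives. Its annotated protein-coding neighbours in the files, Prpf4 and Wdr31 on chromosome 4, had log2 fold changes of −0.12 and −0.24 (limma adjusted p = 0.939 and 0.877). The 250 bases before its outer RefSeq start site, also without any of the 4 motifs, are shown for comparison with Pdia2.

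Rnf183 (chr4:62435251-62435500, minus strand): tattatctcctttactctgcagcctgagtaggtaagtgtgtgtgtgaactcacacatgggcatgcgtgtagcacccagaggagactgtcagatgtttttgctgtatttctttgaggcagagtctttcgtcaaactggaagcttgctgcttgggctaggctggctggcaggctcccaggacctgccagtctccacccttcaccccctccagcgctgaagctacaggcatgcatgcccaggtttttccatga

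Markers of the collecting duct principal cell were, in sum, higher in the same libraries as Rnf183. Their summed level was 2559 and 2547 TPM in KspCre DKO kidneys, against 1059, 1130 and 1085 TPM in controls, and 6 of 9 tested markers lay above and 2 below all controls, where 10.5% of all tested genes lay above and 15.6% below. None was called, and none was at 0 in every library. Aqp2, the water channel of these cells, stood at 1414 and 1218 TPM in KspCre DKO kidneys, against 347, 240.1 and 426 TPM in controls (limma adjusted p = 0.0512), whereas Scnn1b, a subunit of the sodium channel, stood at 45.5 and 43.1 TPM against 50.0, 63.5 and 45.7 TPM. The part of these cells in the Rnf183 result was not tested. Single marker genes were picked after their values were seen. Markers of the thick ascending limb were lower in the same libraries as the chaperones, and their sum was 682 and 367 TPM in KspCre DKO kidneys, against 1551, 1569 and 1460 TPM in controls, with 5 of 6 below all controls, beside 15.6% of all tested genes, and none at 0. Uromodulin, Umod, stood at 285 and 193 TPM against 802, 489 and 542 TPM. The part of this segment in the lower chaperone values was not tested.

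Fibroblast markers summed to 58.1 and 90.3 TPM in KspCre DKO kidneys against 167, 82.2 and 177 TPM in controls, with 3 of 6 below all controls, beside 15.6% of all tested genes, and macrophage markers to 36.6 and 27.2 TPM against 80.8, 42.3 and 68.0 TPM, with 2 of 4 below. Adipocyte markers summed to 91.1 and 75.9 TPM against 219, 192 and 318 TPM, nearly all from Fabp4. Adipoq and Plin1 were below 1 TPM in every library, so this sum describes little but Fabp4. B and plasma cell markers had a higher sum, at 22.4 and 45.8 TPM in KspCre DKO kidneys against 11.98, 4.8 and 12 TPM in controls. That sum was carried by Igkc and Cd79b, and in KspCre DKO replicate 2 also by Jchain. Jchain stood at 0.79 and 5.26 TPM against 0.39, 0.81 and 0.13 TPM, so its groups overlapped. Cd79a stood at 0.58 TPM and 0 against 1.19, 0.48 and 1.44 TPM, and Ms4a1, Pou2af1 and Tnfrsf17 of the 7 matched genes were below 1 TPM in every library. Proximal tubule markers overlapped between groups, at 3611 and 1298 TPM against 2209, 1684 and 1330 TPM. Sums for distal convoluted tubule, intercalated cells, podocytes and endothelium were not wholly on one side, and urothelium markers summed to 70.9 and 76.95 TPM against 69.1, 44.6 and 66.1 TPM. The part of these cell types in the results was not tested.

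The KspCre DKO libraries differed from each other, and most members, like most tested genes, were lower in replicate 2. Of 31 tested members 27 were lower in replicate 2 than in replicate 1, where 79.3% of all tested genes were, with a median log2 difference of −0.69 over members and −0.54 over all tested genes. Against the control mean, members had a median of −0.25 in replicate 1 and −0.86 in replicate 2, where all tested genes had 0.13 and −0.39. Thus 16 members lay below every control in replicate 1, beside 19.9% of all tested genes, and 21 did so in replicate 2, beside 57.7%. In replicate 1, 8 members lay above every control, beside 40% of all tested genes, and in replicate 2, 3 did, beside 16.7%. A fit without KspCre DKO replicate 1 keeps only KspCre DKO replicate 2, which is assumed to vary like the controls. In that fit 26 of 31 members had values below 0, beside 73% of all tested genes. Among these members, Hsp90b1, Calr and Derl1 had log2 fold changes of −1.50, −1.47 and −1.76. In replicate 1 the same 3 genes differed from the control mean by −0.75, −0.33 and −0.004.

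**Figure D4:**
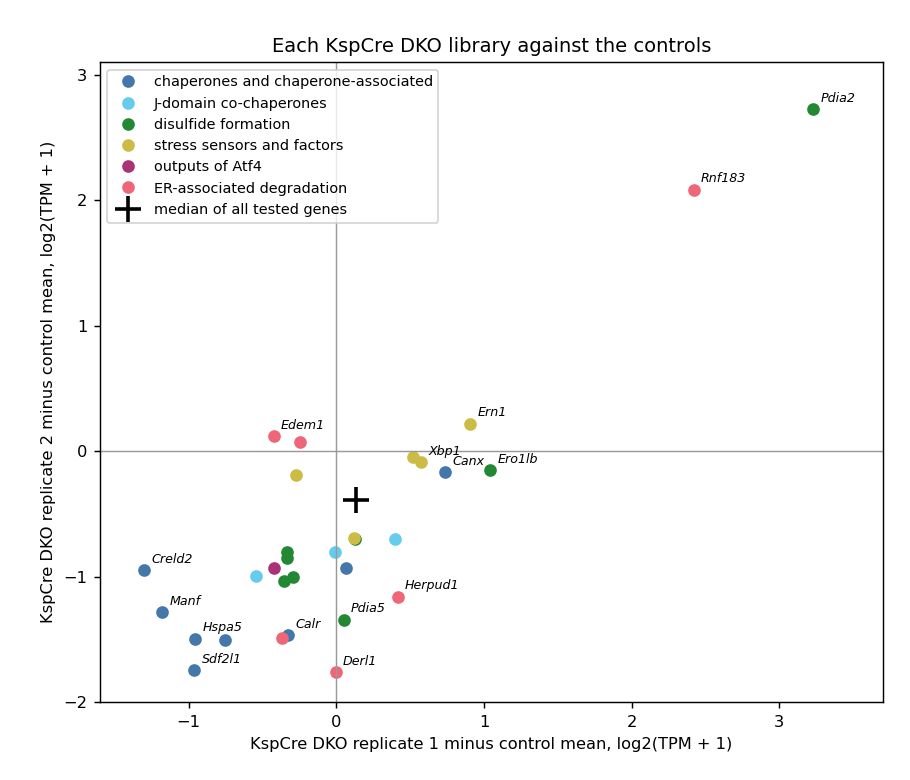
Difference of each tested member from the control mean on the log2(TPM + 1) scale, in KspCre DKO replicate 1 on the horizontal and replicate 2 on the vertical axis, coloured by role. The cross marks the median of all tested genes at 0.13 and −0.39; Creld2, Manf, Hspa5 and Sdf2l1 are low in both libraries, Derl1 and Herpud1 only in replicate 2, and Pdia2 and Rnf183 are high in both.

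Controls also differed among themselves. Of 31 tested members 17 were highest in control replicate 3, 9 in replicate 1 and 5 in replicate 2, where 37%, 36.7% and 26.3% of all tested genes were. Together the 33 matched members held 0.226% and 0.137% of all TPM in KspCre DKO kidneys, against 0.262%, 0.245% and 0.31% in controls. By mean level, Calr led in both groups. It was followed in KspCre DKO kidneys by P4hb (181 ± 45.7 TPM), Herpud1 (177 ± 125 TPM), Hspa5 (138 ± 36.4 TPM), Hsp90b1 (128 ± 46.1 TPM) and Xbp1 (123 ± 39.5 TPM, SD, n = 2), neighbours that did not differ beyond their spread. In controls it was followed by Hspa5 (325 ± 76.5 TPM), Hsp90b1 (272 ± 33.9 TPM), P4hb (270 ± 19.5 TPM) and Herpud1 (204 ± 58.2 TPM, SD, n = 3), of which Hsp90b1 and P4hb were closest.

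The promoter element did not divide the members cleanly. Of the 9 members with an ERSE, 5 lay below all controls (Calr, Creld2, Hsp90b1, Hspa5 and Pdia6) and none above, with a median log2 fold change of −0.70 and a range of −1.23 to 0.44. Canx, Derl3, Dnajc3 and Ero1lb, whose elements are printed above, overlapped the controls. Of 18 tested members whose window held no ERSE, 7 lay below and 3 above, with a median of −0.33, and Sdf2l1, the lowest member, was among them. Hyou1, Manf, Atf6 and Derl1 had no window. These counts are read beside 15.6% of all tested genes below and 10.5% above.

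Further genes of the same compartment, none of them members, gave no call. Of 20 other luminal folding factors tested, 16 had values below 0 with a median log2 fold change of −0.41, and 6 lay below and 1 above all controls. Over all tested genes, 61.7% had values below 0, 15.6% lay below all controls and 10.5% above, and the counts of each further list are to be read beside these shares. Ppib, a prolyl isomerase, stood at 359 and 223 TPM in KspCre DKO kidneys against 498, 440.0 and 530.3 TPM in controls (limma adjusted p = 0.373), and Uggt2, a glycoprotein sensor, at 5.47 and 4.84 TPM against 2.88, 1.68 and 1.97 TPM (adjusted p = 0.402). Of 20 genes of the translocon, signal peptidase and oligosaccharyltransferase, 18 had values below 0 with a median of −0.30, and 6 lay below all controls. Among them Spcs3, of signal peptidase, stood at 10.7 and 5.57 TPM against 17.9, 14.2 and 23.3 TPM, and Sec61g, of the translocon, at 56.3 and 41.4 TPM against 92.9, 65.0 and 99.6 TPM (limma adjusted p = 0.338 and 0.413). The medians of both lists lay below the −0.14 of all tested genes.

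Of 26 other degradation genes 17 had values below 0, with a median of −0.07, and 2 lay below and 2 above all controls, where 61.7% of all tested genes had values below 0, 15.6% lay below and 10.5% above. Selenos stood at 39.9 and 17.5 TPM in KspCre DKO kidneys against 51.8, 39.0 and 53.8 TPM, and Herpud2 at 10.8 and 9.57 TPM against 7.26, 6.67 and 6.19 TPM (limma adjusted p = 0.505 and 0.582). Of 15 other sensors and transducers tested 8 had values below 0, with a median of −0.02 and 1 below all controls, Creb3l1, at 6.46 and 6.04 TPM against 9.02, 14.2 and 19.6 TPM (adjusted p = 0.388). Mbtps2, a protease that releases Atf6, stood at 2.48 and 5.25 TPM against 1.80, 1.53 and 2.59 TPM.

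Targets of Atf4 and Chop other than the members had log2 fold changes on both sides of 0. Of 22 tested, 12 had values above 0 and 10 below, where 61.7% of all tested genes had values below 0. Their median was 0.12, beside −0.14 over all tested genes. Among them 5 lay above and none below all controls, where 10.5% of all tested genes lay above and 15.6% below. Nupr1, a small stress-induced nuclear protein, stood at 174 and 253 TPM in KspCre DKO kidneys against 86.9, 70.2 and 114 TPM in controls, and Psat1, of serine synthesis, at 56.2 and 28.7 TPM against 18.6, 4.76 and 7.39 TPM (limma adjusted p = 0.208 and 0.224). Of 11 tested relatives of Rnf183 and genes of the hypertonicity factor Nfat5, 8 had values above 0 with a median of 0.72, and 5 lay above all controls, where 10.5% of all tested genes did so. Rnf225, among these 5, stood at 3.09 and 3.79 TPM in KspCre DKO kidneys against 0.90, 0.34 and 0.07 TPM in controls. It reached the mean of 1 TPM only through the KspCre DKO libraries, so its place in the count depends on its being high there. Akr1b3, the aldose reductase that makes sorbitol under high salt, stood at 1221 and 711 TPM in KspCre DKO kidneys against 179, 55.0 and 107 TPM in controls, a difference of 3.18 ± 0.47 in log2 (SE, limma adjusted p = 0.0541). Hspa1b, an inducible cytosolic Hsp70 whose reads may be split with its near-identical copy Hspa1a, stood at 133 and 71.1 TPM against 21.2, 19.6 and 37.5 TPM (adjusted p = 0.141), and Nfat5 itself at 37.6 and 18.0 TPM against 24.2, 26.7 and 24.9 TPM. The inositol transporter gene Slc5a3, a classic Nfat5 target, lay on the other side, at 14.7 and 4.83 TPM in KspCre DKO kidneys against 14.3, 17.6 and 27.6 TPM in controls (log2 fold change −1.07, limma adjusted p = 0.482), and the taurine transporter gene Slc6a6 had a log2 fold change of −0.04. Both were named after their values were seen. None of these 11 genes passed the test.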

How the data were processed

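Poly(A) RNA of whole kidney was sequenced (RNeasy mini kit and TruSeq libraries, per the labels' protocols), and the deposited values are TPM per gene identifier, written with 2 decimals. Per the submitters' processing notes, the tools include STAR 2.2.1, RSEM 1.3.1 and Trim Galore 0.5.0, with the build mm10, and no step is assigned to them. Whether counting used strand is not given in the sources used here. Read numbers cannot be recovered from TPM, and depth and its precision are unknown.

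The 13963 genes averaging 1 TPM or more across the 5 libraries were tested on log2(TPM + 1) with limma 3.58.1 in R 4.3.3, two-sided, with an intensity trend and Benjamini-Hochberg adjustment over all of them, calling adjusted p below 0.05. The fold change understates differences of low genes. Alternatives changed the pseudocount, filter, scaling, trend, library weights, replicate block and libraries used. Libraries with the same replicate number had correlations of deviations from their group means of 0.093 and 0.028. With 2 KspCre DKO libraries these deviations mirror each other, so such values cannot exclude a pairing. All listed members are named, with the 2 genes of smallest p from each further list. The members and lists were chosen with earlier results of these data known. Promoter windows come from RefSeq (GRCm38.p6). Bisulfite libraries are not analysed here.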

Additional observations from a re-analysis of the deposited data

How the results depend on the processing

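Over the 15 alternatives, 19 of 31 tested members kept the sign of their log2 fold change and 12 did not. Hspa5 stayed between −1.50 and −0.96, Manf between −1.34 and −1.04, Creld2 between −1.30 and −0.95, and Rnf183 between 2.03 and 2.42. The number of members called higher, 2 in the fit as reported, was 0 with a pseudocount of 0.1 TPM, with no filter and with array weights, and 1 with a mean of at least 5 TPM (where Pdia2 is not tested), with no intensity trend and with the replicate block. Leaving out 1 library gave 0 to 2 members higher and 0 to 3 lower. Over all tested genes, 14 were called higher and 9 lower as reported. The number called higher was 7 and 28 with pseudocounts of 0.1 and 5 TPM, 24, 35 and 26 with median-of-ratios scaling, quantile normalization and rescaling without mitochondrially encoded genes. With no filter 3 were called higher and 1 lower, with no intensity trend 6 and 3, with array weights 3 and 2, and with the replicate block 47 and 28. Leaving out 1 library gave 3 to 89 higher and 1 to 466 lower, the highest counts without KspCre DKO replicate 1. The cause was not tested.

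Derl3 changed sign to 0.012, 0.0094 and 0.0039 with median-of-ratios scaling, quantile normalization and rescaling without mitochondrially encoded genes, and Dnajb9 to 0.0068 with the replicate block. Leaving out 1 library turned the sign of 12 members. Their log2 fold changes then ran from −0.93 to 0.066 for Hyou1, −0.17 to 0.74 for Canx, −0.70 to 0.40 for Dnajb9, −1.34 to 0.049 for Pdia5, −0.70 to 0.13 for Ero1l, −0.15 to 1.04 for Ero1lb, −0.0497 to 0.52 for Atf6, −0.70 to 0.12 for Eif2ak3, −0.087 to 0.57 for Xbp1, −0.42 to 0.12 for Edem1, −0.25 to 0.072 for Derl3 and −1.16 to 0.41 for Herpud1. The replicate numbers are shared by label only, and no sample correlated with its own number beyond 0.093. With 2 KspCre DKO libraries and no read numbers, differences of low members such as Ero1lb, Trib3 and Chac1 could not be resolved.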
